A study of Mus musculus with 12 samples.

Results

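The genes of cholesterol and fatty acid synthesis were followed across 4 mouse induced pluripotent stem (iPS) cell lines. The list holds 32 genes: 19 enzymes of sterol synthesis, 6 regulators and carriers of sterol, and 7 genes of fatty acid synthesis. Of these, 31 had a probe set of their own on the array, out of 19938 genes measured. Acat2 is not analysed here. Each gene is represented by its brightest probe set over the 12 arrays, among probe sets that list that gene alone.

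All 4 lines were C57BL/6J iPS cells made from mouse embryonic fibroblasts with 3 reprogramming factors, and all were grown in embryonic stem cell medium. Competence for tetraploid complementation, the ability to form a whole embryo when placed in a tetraploid host, was present in LiPS-45 and in LiPS-57 and absent in LiPS-47 and in LiPS-50. Each line had 3 biological repeats, numbered 1 to 3. The labels do not say what separated the repeats, so a p-value measures only the spread between these samples. Each competence class was 2 lines.

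Every cell makes cholesterol from acetyl-CoA through mevalonate, isoprenoid diphosphates, squalene and lanosterol. Transcription of these enzymes is driven by the sterol regulatory element-binding proteins (SREBPs), which Scap carries to the Golgi when sterol is scarce and which Insig proteins hold in the endoplasmic reticulum when sterol is plentiful. SREBPs also drive fatty acid synthesis, which supplies the membranes of fast-dividing cells such as pluripotent stem cells.

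Values are log2(intensity + 1) of the deposited probe set intensities, and a fold is taken on that scale. A difference was called when limma's two-sided test, with Benjamini-Hochberg adjustment over 28939 probe sets, gave an adjusted p under 0.05. All 3 pairs that include LiPS-50 share its 3 arrays, so they are not independent of each other. Array medians of intensity lay between 50.1 and 53.1, and repeats of a line correlated at 0.996 to 0.997. Mean levels of the 31 members ran from 7.09 to 10.78, against 6.18 for the median gene. Because bright genes were called more often than all genes in the pairs with LiPS-50, background shares are given over all genes and over the 7492 genes at least as bright as the dimmest member.

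SREBPs bind sterol response elements, often beside a CCAAT box bound by NF-Y. Promoter windows of 300 bases, from 250 before to 50 after the transcription start, were taken from RefSeq (GRCm38.p6) for 25 of the 32 genes and searched on both strands. The letters TCACNCCA, a sterol response element core, were in 3 of the 25 windows (Hmgcs1, Msmo1 and Srebf2), against 4.97% of 27025 genes. The longer TCACNCCAC, which contains the core, was in the Hmgcs1 window (1.44% of genes). CCAAT, printed as ATTGG where it lies on the other strand, was in 21 of the 25 (41.1% of genes). It was in the windows of 10 of 11 genes lower in LiPS-50, of 2 of 3 higher there and of 9 of 10 not called. GGGCGG was in 21 windows (38.2% of genes) and CACGTG in 5 (8.09% of genes). A match of letters is not a site of binding. The stretches below belong to 4 genes that were lower in LiPS-50 in at least 1 pair and to the 2 sterol enzymes that were higher there, and capitals mark the sterol response element letters and CCAAT. They lie at chr13:119690158-119690237 (Hmgcs1, plus strand), chr15:82147084-82147163 (Srebf2, plus strand), chr8:64733704-64733783 (Msmo1, minus strand), chr13:8885526-8885605 (Idi1, plus strand), chrX:8193641-8193720 (Ebp, minus strand) and chrX:72918374-72918453 (Nsdhl, plus strand).
Hmgcs1: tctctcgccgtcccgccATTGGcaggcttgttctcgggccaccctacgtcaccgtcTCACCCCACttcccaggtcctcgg
Srebf2: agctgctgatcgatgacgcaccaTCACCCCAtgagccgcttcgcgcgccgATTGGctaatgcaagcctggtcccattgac
Msmo1: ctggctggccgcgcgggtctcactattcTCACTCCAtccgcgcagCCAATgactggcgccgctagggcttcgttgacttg
Idi1: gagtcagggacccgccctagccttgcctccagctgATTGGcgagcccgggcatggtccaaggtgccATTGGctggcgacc
Ebp: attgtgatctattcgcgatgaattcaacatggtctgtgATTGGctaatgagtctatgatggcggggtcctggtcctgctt
Nsdhl: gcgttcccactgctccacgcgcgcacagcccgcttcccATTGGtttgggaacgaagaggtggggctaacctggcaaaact

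LiPS-50 stood apart from the other lines over all genes as well as in this pathway. Its pairs with LiPS-45, LiPS-57 and LiPS-47 had 3727, 3571 and 3644 of 19938 genes called. LiPS-45 against LiPS-57, LiPS-45 against LiPS-47 and LiPS-57 against LiPS-47 had 50, 10 and 30. In LiPS-50, 10 of 18 sterol enzymes were lower in at least 1 pair. In all 3 pairs 6 of them were lower: Hmgcs1, Pmvk, Idi1, Lss, Msmo1 and Dhcr7. For these counts over pairs, no share of all genes was computed. The shares given below belong to single pairs. The X-linked sterol enzymes Nsdhl and Ebp were higher in LiPS-50 in all 3 pairs. Among LiPS-45, LiPS-57 and LiPS-47, no member passed the test in any pair. Adjustment was made within each pair, so the bar was stricter in these pairs, where far fewer genes differed. Counted by pair, 8 of 18 sterol enzymes were lower in LiPS-50 than in LiPS-45, 7 in the pair with LiPS-57 and 8 in the pair with LiPS-47, and 2 were higher in each. Over all genes, 9.1%, 8.59% and 8.44% were lower in LiPS-50 in those pairs. Over the bright genes, 18.2%, 17.4% and 16.1% were lower. The shares higher in LiPS-50 were 9.59%, 9.32% and 9.84% of all genes, and 13.6%, 13.6% and 14.8% of bright genes. The median sterol enzyme was lower in LiPS-50 by 0.16, 0.19 and 0.22 log2 units than in LiPS-45, LiPS-57 and LiPS-47, beside 0.05, 0.04 and 0.03 for the median bright gene. Centring each array on its median moved the share of all calls that were lower in LiPS-50 from 48.7%, 48% and 46.2% to 63.7%, 62.4% and 55.4%. With that centring, 9, 10 and 10 sterol enzymes were lower and 2 higher. Over all genes it gave 12%, 11.2% and 9.9% lower in LiPS-50 and 6.83%, 6.76% and 7.98% higher.

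**Figure D1:**
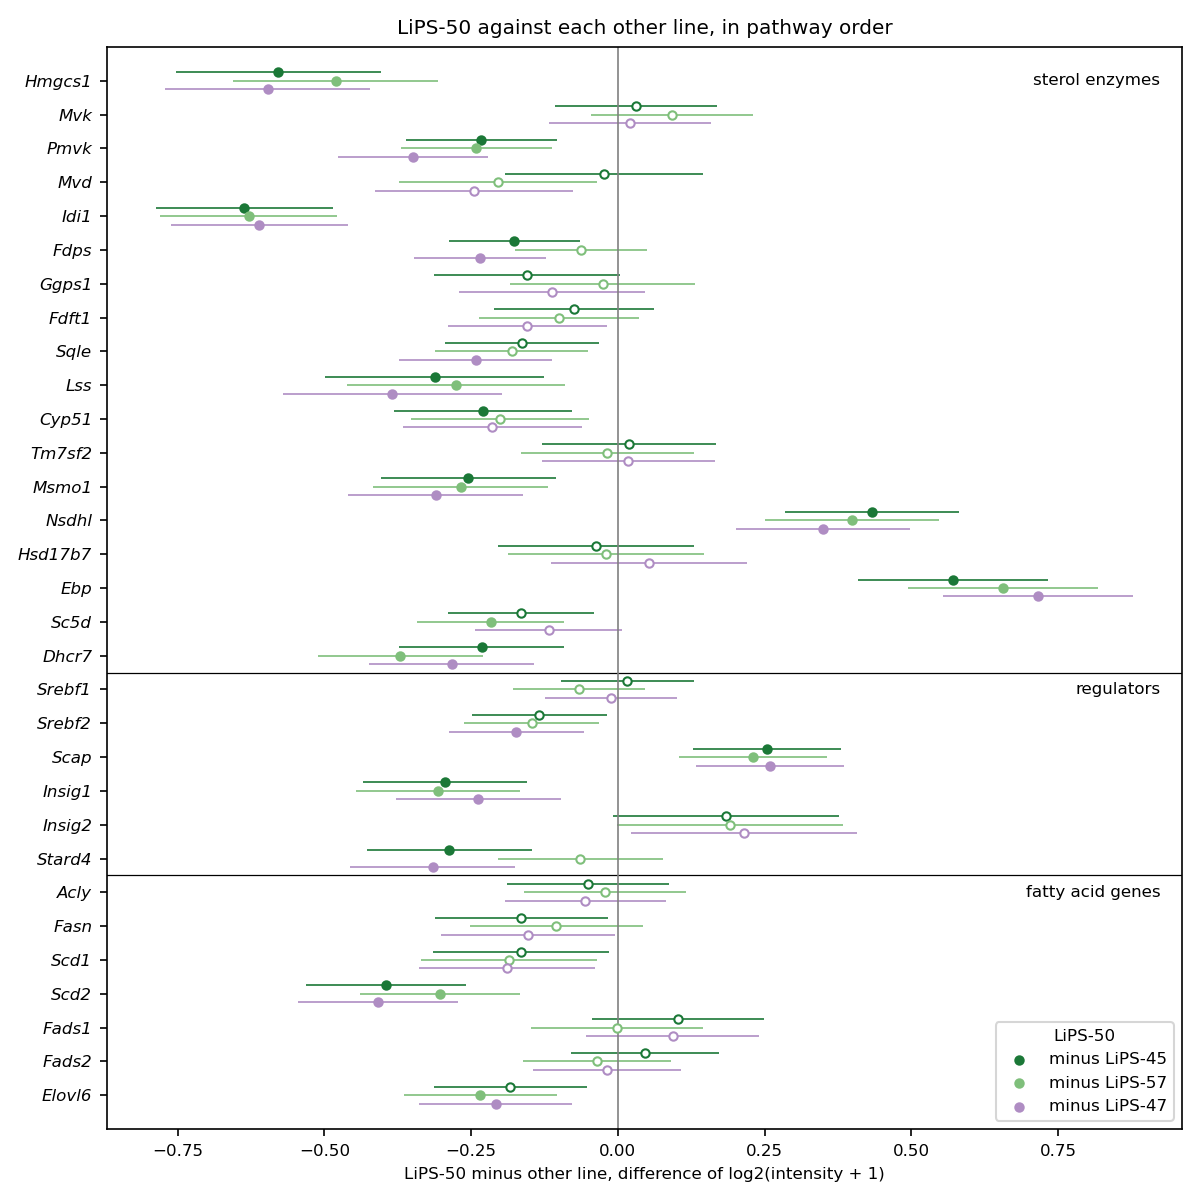
Difference of log2(intensity + 1) between LiPS-50 and each other line for the 31 measured members, in pathway order within each group. Points are the fitted differences, bars their 95% confidence intervals and filled points differences with an adjusted p under 0.05; points left of 0 are lower in LiPS-50, and the called points of Ebp, Nsdhl and Scap lie to the right.

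The largest falls among the sterol enzymes were at 2 early steps, Hmgcs1 and Idi1. Hmgcs1 (probe set 10412466, chromosome 13) makes HMG-CoA, the substrate of mevalonate synthesis. Its level was 10.67, 10.77 and 10.82 in LiPS-45, 10.67, 10.68 and 10.61 in LiPS-57, 10.89, 10.68 and 10.74 in LiPS-47, and 10.02, 10.27 and 10.24 in LiPS-50. All 3 LiPS-50 repeats lay below the other 9 arrays, and repeat 1 was the lowest. Hmgcs1 was 1.49-fold lower in LiPS-50 than in LiPS-45 (difference 0.58, SE 0.0803, limma adjusted p = 4.63e-04), 1.4-fold lower than in LiPS-57 (adjusted p = 0.00171) and 1.51-fold lower than in LiPS-47 (adjusted p = 3.6e-04).

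Idi1 interconverts the isoprenoid building blocks isopentenyl and dimethylallyl diphosphate. Its brighter probe set (10482762) read 10.02, 9.96 and 10.16 in LiPS-45, 9.97, 10.08 and 10.07 in LiPS-57, 9.9997, 9.96 and 10.10 in LiPS-47, and 9.35, 9.42 and 9.47 in LiPS-50. LiPS-50 did not overlap with the other lines, which overlapped with each other. The gap between LiPS-50 and the nearest other array was wider than the spread within any line. Idi1 was 1.55-fold lower in LiPS-50 than in LiPS-45 (difference 0.64, SE 0.0692, limma adjusted p = 7.57e-05), 1.55-fold lower than in LiPS-57 (adjusted p = 1.02e-04) and 1.53-fold lower than in LiPS-47 (adjusted p = 1.05e-04). Idi1 lies on chromosome 13, whereas 13 of the 14 neighbours of this probe set by number lie on chromosome 2. The dimmer Idi1 probe set (10403413), whose 15 neighbours are all on chromosome 13, was lower in LiPS-50 by 1.55, 1.54 and 1.56-fold in the same pairs (limma adjusted p = 3.75e-04, 4.77e-04 and 3.61e-04).

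Pmvk, the second of the mevalonate kinases, was lower in LiPS-50 in all 3 pairs. Its level was 7.89, 7.97 and 7.95 in LiPS-45, 7.92, 7.96 and 7.96 in LiPS-57, 8.03, 8.13 and 8.01 in LiPS-47, and 7.69, 7.78 and 7.65 in LiPS-50. The LiPS-50 repeats lay below and the LiPS-47 repeats above every other array. The fold was 1.18, 1.18 and 1.27 against LiPS-45, LiPS-57 and LiPS-47 (SE of the difference 0.059, limma adjusted p = 0.0178, 0.0152 and 0.00155). The call against LiPS-45 was lost without LiPS-45 repeat 2 or 3 or LiPS-50 repeat 1 or 3 (adjusted p = 0.0612, 0.0586, 0.0543 and 0.0687), and that against LiPS-57 without LiPS-50 repeat 3 or LiPS-57 repeat 3 (adjusted p = 0.0616 and 0.0515).

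Fdps, which makes farnesyl diphosphate, was lower in LiPS-50 than in LiPS-45 and LiPS-47 but was not called against LiPS-57. It read 9.67, 9.69 and 9.68 in LiPS-45, 9.56, 9.54 and 9.60 in LiPS-57, 9.76, 9.72 and 9.74 in LiPS-47, and 9.52, 9.46 and 9.54 in LiPS-50. The LiPS-57 repeats lay close above LiPS-50, and the LiPS-47 repeats above every other array. The fold was 1.13 against LiPS-45 (SE 0.0515, limma adjusted p = 0.0353) and 1.18 against LiPS-47 (adjusted p = 0.00784). Fitting LiPS-47 and LiPS-50 alone ended the call between them (limma adjusted p = 0.0526). Against LiPS-57 the difference was 0.06 (95% interval from -0.05 to 0.18, adjusted p = 0.507). Leaving out any 1 of the 6 arrays of LiPS-45 and LiPS-50 ended the call between them, with adjusted p between 0.0584 (without LiPS-50 repeat 3) and 0.119 (without LiPS-50 repeat 2), and quantile normalization also ended it (adjusted p = 0.0822).

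Of the other early enzymes, Mvk, Mvd, Ggps1 and Fdft1 passed in no pair. Mvk, the first mevalonate kinase, ranged from 7.50 to 7.64 over the other 3 lines and read 7.52, 7.71 and 7.61 in LiPS-50. Mvd, the decarboxylase that follows Pmvk, came nearest in the comparison with LiPS-47 (difference 0.24, 95% interval 0.08 to 0.41, limma adjusted p = 0.0515). Ggps1, which makes geranylgeranyl diphosphate, and Fdft1, squalene synthase, had means in LiPS-50 of 8.17 ± 0.081 and 9.86 ± 0.094 (SD, n = 3), each the lowest of the 4 lines, with adjusted p of at least 0.186 and 0.129.

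Squalene is turned into lanosterol by Sqle and Lss. Lss (lanosterol synthase) read 8.46, 8.60 and 8.67 in LiPS-45, 8.48, 8.67 and 8.47 in LiPS-57, 8.70, 8.60 and 8.65 in LiPS-47, and 8.11, 8.36 and 8.33 in LiPS-50. The 3 LiPS-50 repeats lay below the other 9 arrays, with repeat 1 the lowest. The fold was 1.24, 1.21 and 1.30 against LiPS-45, LiPS-57 and LiPS-47 (SE 0.0856, limma adjusted p = 0.0265, 0.0473 and 0.00849). The call against LiPS-45 was lost without LiPS-45 repeat 2 or 3 or LiPS-50 repeat 1 (adjusted p = 0.0731, 0.106 and 0.102). Against LiPS-57 it was lost without any LiPS-57 repeat, without LiPS-50 repeat 1 or 3, LiPS-45 repeat 2 or 3 or any LiPS-47 repeat, with adjusted p from 0.0503 (without LiPS-45 repeat 3) to 0.180 (without LiPS-50 repeat 1). That call was also lost with no pseudocount, with the control block included and with the lines fitted alone (limma adjusted p = 0.0503, 0.0724 and 0.0946). Sqle, squalene epoxidase, read 9.44, 9.35 and 9.41 in LiPS-50, below the range of 9.50 to 9.66 in the other lines. It was called against LiPS-47 (fold 1.18, SE 0.06, limma adjusted p = 0.0157; 0.0586 without LiPS-50 repeat 2) and not against LiPS-45 (adjusted p = 0.0891) or LiPS-57 (adjusted p = 0.0625).

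Among the enzymes that turn lanosterol into cholesterol, Msmo1 and Dhcr7 were lower in LiPS-50 in all 3 pairs, and Cyp51 and Sc5d in 1 each. Msmo1, a methylsterol oxidase, read 10.61, 10.64 and 10.74 in LiPS-45, 10.68, 10.69 and 10.67 in LiPS-57, 10.81, 10.67 and 10.68 in LiPS-47, and 10.30, 10.44 and 10.49 in LiPS-50. LiPS-50 did not overlap with the other lines, and the fold was 1.19, 1.20 and 1.24 (SE 0.0683, limma adjusted p = 0.0237, 0.0189 and 0.00794 against LiPS-45, LiPS-57 and LiPS-47). The Msmo1 call against LiPS-45 was lost without LiPS-45 repeat 3 or LiPS-50 repeat 1 (adjusted p = 0.0975 and 0.0917), and that against LiPS-57 without LiPS-50 repeat 1 or LiPS-57 repeat 1, 2 or 3 (adjusted p = 0.0777, 0.0552, 0.0573 and 0.0505).

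Dhcr7 performs the last reduction to cholesterol. It read 8.25, 8.13 and 8.25 in LiPS-45, 8.31, 8.41 and 8.34 in LiPS-57, 8.22, 8.30 and 8.27 in LiPS-47, and 8.08, 7.95 and 7.91 in LiPS-50. LiPS-50 lay lowest and LiPS-57 highest, and neither overlapped with the other lines. The fold was 1.18, 1.29 and 1.22 against LiPS-45, LiPS-57 and LiPS-47 (SE 0.0645, limma adjusted p = 0.0281, 0.00222 and 0.0098). The Dhcr7 call against LiPS-45 was lost without LiPS-45 repeat 1 or 3 or LiPS-50 repeat 2 or 3 (adjusted p = 0.0887, 0.0973, 0.0854 and 0.101), and under quantile normalization (adjusted p = 0.0509).

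Cyp51, the lanosterol demethylase, read 8.49, 8.55 and 8.62 in LiPS-50, below the range of 8.69 to 8.91 in the other lines. It was called against LiPS-45 (fold 1.17, SE 0.0697, limma adjusted p = 0.0415), while the pairs with LiPS-57 and LiPS-47 gave adjusted p = 0.0747 and 0.0584. That call was lost without LiPS-45 repeat 2 or 3, LiPS-47 repeat 3, LiPS-50 repeat 1 or 2 or any LiPS-57 repeat, with adjusted p from 0.0502 (without LiPS-47 repeat 3) to 0.164 (without LiPS-45 repeat 3). Including the control block also ended it (limma adjusted p = 0.0552). Sc5d, a sterol desaturase, read 8.52, 8.51 and 8.58 in LiPS-50, below the range of 8.61 to 8.78 elsewhere. It was called against LiPS-57 (fold 1.16, SE 0.0573, limma adjusted p = 0.0225), a call lost without LiPS-50 repeat 1 or 2 or any LiPS-57 repeat (adjusted p from 0.0541 without LiPS-57 repeat 1 to 0.0742 without LiPS-57 repeat 3). Tm7sf2, a sterol reductase, and Hsd17b7, a ketosteroid reductase, passed in no pair. Their 95% intervals against LiPS-47 ran from -0.17 to 0.13 and from -0.22 to 0.11 for LiPS-47 minus LiPS-50.

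**Figure D2:**
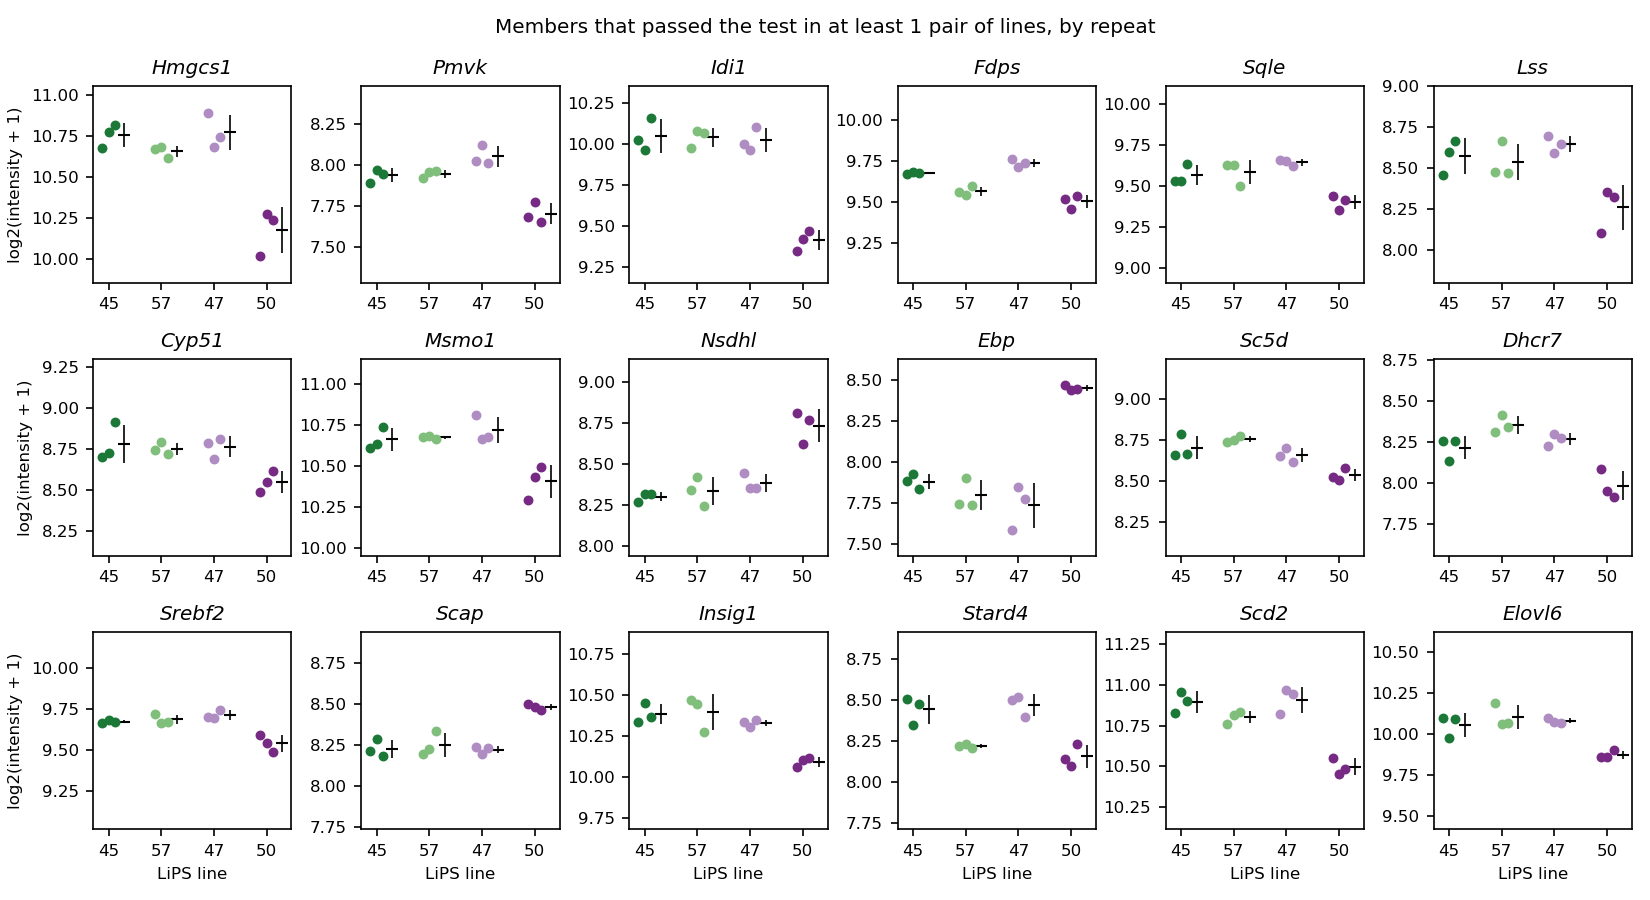
Levels, as log2(intensity + 1), of the 18 members called in at least 1 pair of lines; each panel spans 1.2 log2 units, with its own position on the axis. Coloured points are the 3 repeats of a line and black marks their mean with the SD; LiPS-50 lies lowest for Hmgcs1, Idi1, Scd2 and most other panels, and highest for Nsdhl, Ebp and Scap.

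Ebp and Nsdhl moved the other way. Beside bright-gene shares of 13.6%, 13.6% and 14.8% higher in LiPS-50, a count of 2 of 18 is near the background. Ebp, the sterol isomerase that shifts a ring double bond, read 7.88, 7.92 and 7.83 in LiPS-45, 7.74, 7.90 and 7.74 in LiPS-57, 7.58, 7.84 and 7.77 in LiPS-47, and 8.47, 8.44 and 8.44 in LiPS-50. LiPS-50 lay above all other arrays. The fold was 1.49, 1.58 and 1.64 against LiPS-45, LiPS-57 and LiPS-47 (SE 0.0743, limma adjusted p = 2.92e-04, 1.3e-04 and 5.58e-05). Nsdhl, a dehydrogenase of sterol demethylation, read 8.27, 8.32 and 8.31 in LiPS-45, 8.34, 8.42 and 8.24 in LiPS-57, 8.45, 8.35 and 8.35 in LiPS-47, and 8.81, 8.62 and 8.77 in LiPS-50. Here too the LiPS-50 repeats lay above the other 9 arrays. The fold was 1.35, 1.32 and 1.27 (SE 0.0683, limma adjusted p = 0.00112, 0.00201 and 0.00384).

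Both genes are on the X chromosome, and no other measured sterol enzyme is. Among bright genes, the 244 on the X were higher in LiPS-50 than in LiPS-45, LiPS-57 and LiPS-47 by a median of 0.37, 0.41 and 0.42 log2 units, and 72.1%, 78.7% and 77% of them were called higher. The 7239 bright autosomal genes had medians of -0.05, -0.05 and -0.04, and 11.7%, 11.4% and 12.7% were called higher. Nsdhl stood at percentiles 59.4, 46.7 and 37.3 of the bright X-linked genes and Ebp at 78.7, 85.2 and 86.1. Less the median of those genes, Nsdhl differed by 0.06, -0.01 and -0.07 and Ebp by 0.20, 0.24 and 0.29 log2 units. The part of the X-wide difference in these 2 values was not tested.

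**Figure D3:**
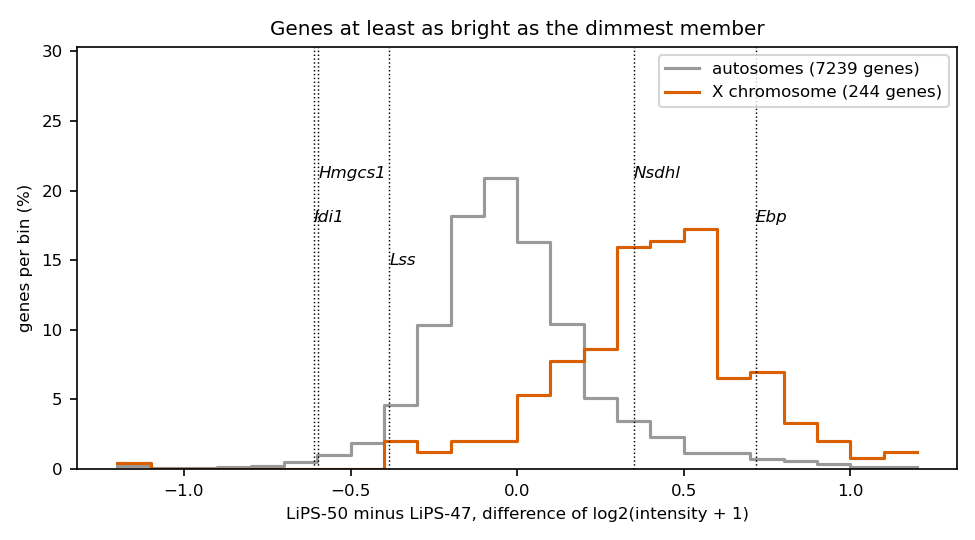
Distribution of the difference between LiPS-50 and LiPS-47 in log2(intensity + 1) over the 7239 autosomal and 244 X-linked genes at least as bright as the dimmest member, as a percentage of genes in each bin; the end bins also hold values beyond -1.2 and 1.2. Dotted lines mark 5 sterol enzymes: Nsdhl and Ebp lie within the X-linked distribution, and Hmgcs1, Idi1 and Lss in the lower tail of the autosomal one.

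Of the 6 regulators and carriers, Insig1 was lower and Scap higher in LiPS-50 in all 3 pairs. By pair, 2, 1 and 3 of the 6 were lower in LiPS-50 than in LiPS-45, LiPS-57 and LiPS-47, and 1 was higher in each. Beside bright-gene shares of 18.2%, 17.4% and 16.1% lower and 13.6%, 13.6% and 14.8% higher, a count of 1 of 6 is near the background. With median centring the counts against LiPS-57 were 2 lower and 0 higher, beside 11.2% and 6.76% of all genes. The group's median was lower in LiPS-50 by 0.06, 0.06 and 0.09 log2 units.

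Insig1, which retains SREBPs in the endoplasmic reticulum and is itself an SREBP target, read 10.33, 10.45 and 10.37 in LiPS-45, 10.47, 10.45 and 10.27 in LiPS-57, 10.33, 10.31 and 10.34 in LiPS-47, and 10.06, 10.10 and 10.11 in LiPS-50. The LiPS-50 repeats lay below all others. The fold was 1.23, 1.24 and 1.18 (SE 0.0644, limma adjusted p = 0.00803, 0.00685 and 0.025 against LiPS-45, LiPS-57 and LiPS-47). The call against LiPS-47 was lost on leaving out any 1 of the 6 arrays of those lines, with adjusted p from 0.0501 (without LiPS-47 repeat 2) to 0.0803 (without LiPS-50 repeat 1). Its relative Insig2 read 7.80, 7.79 and 7.90 in LiPS-50, above the other lines' range of 7.40 to 7.73, and was not called (limma adjusted p = 0.196, 0.191 and 0.135).

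Scap, the escort of SREBPs, read 8.21, 8.28 and 8.18 in LiPS-45, 8.19, 8.22 and 8.33 in LiPS-57, 8.24, 8.19 and 8.23 in LiPS-47, and 8.50, 8.48 and 8.46 in LiPS-50. LiPS-50 lay above every other array, by 1.19, 1.17 and 1.20-fold (SE 0.0577, limma adjusted p = 0.00997, 0.0173 and 0.0085 against LiPS-45, LiPS-57 and LiPS-47). The call against LiPS-57 was lost with median centring (adjusted p = 0.0691) and without LiPS-50 repeat 1 or LiPS-57 repeat 1 or 2 (adjusted p = 0.0558, 0.0722 and 0.0605).

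Stard4, which carries sterol between membranes, separated the lines differently. It read 8.51, 8.34 and 8.47 in LiPS-45, 8.50, 8.51 and 8.39 in LiPS-47, 8.22, 8.23 and 8.21 in LiPS-57, and 8.14, 8.09 and 8.23 in LiPS-50. LiPS-57 and LiPS-50 overlapped, and both lay below the other 2 lines. Stard4 was 1.22-fold lower in LiPS-50 than in LiPS-45 (SE 0.0644, limma adjusted p = 0.00932) and 1.24-fold lower than in LiPS-47 (adjusted p = 0.00501). Against LiPS-57 the difference was 0.06 (95% interval from -0.08 to 0.20, adjusted p = 0.613). LiPS-57 was lower than LiPS-47 by 0.25 log2 units and lower than LiPS-45 by 0.22, and neither passed (adjusted p = 0.329 and 0.342).

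Of the transcription factors themselves, Srebf2, which mainly drives sterol synthesis, read 9.59, 9.54 and 9.49 in LiPS-50, below the range of 9.67 to 9.75 in the other lines. Its fold was 1.10, 1.11 and 1.13, and it was called against LiPS-47 alone (SE 0.0528, limma adjusted p = 0.113, 0.0862 and 0.0439). That call was lost when any 1 of the 12 arrays was left out, with adjusted p from 0.0504 (without LiPS-50 repeat 1) to 0.150 (without LiPS-50 repeat 3), and under quantile normalization (adjusted p = 0.101). Srebf1, which drives fatty acid synthesis more, ranged from 8.13 to 8.27 over the other lines and read 8.14, 8.13 and 8.19 in LiPS-50. Its 95% intervals for the difference from LiPS-50 ran from -0.13 to 0.10, -0.05 to 0.18 and -0.10 to 0.12 for LiPS-45, LiPS-57 and LiPS-47.

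The fatty acid genes, taken apart from the sterol enzymes, gave 1, 2 and 2 of 7 lower in LiPS-50 than in LiPS-45, LiPS-57 and LiPS-47, and 0 higher. The bright-gene shares lower in LiPS-50 were 18.2%, 17.4% and 16.1%, so 1 of 7 is near the background. Their median was lower in LiPS-50 by 0.16, 0.10 and 0.15 log2 units. The counts rest on Scd2 and Elovl6. Scd2, a stearoyl-CoA desaturase that makes monounsaturated fatty acids, read 10.83, 10.96 and 10.90 in LiPS-45, 10.76, 10.81 and 10.83 in LiPS-57, 10.82, 10.97 and 10.94 in LiPS-47, and 10.55, 10.46 and 10.49 in LiPS-50. LiPS-50 lay below all other arrays, by 1.31, 1.23 and 1.33-fold (SE 0.0626, limma adjusted p = 0.00115, 0.00617 and 8.3e-04). Its paralog Scd1 read 8.56, 8.54 and 8.65 in LiPS-50, also below the other lines' range of 8.67 to 8.88, and was not called (adjusted p = 0.136, 0.0959 and 0.0891). Whether probes are shared by these 2 similar genes was not tested.

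Elovl6, which lengthens palmitate, read 10.10, 9.97 and 10.09 in LiPS-45, 10.19, 10.06 and 10.07 in LiPS-57, 10.10, 10.07 and 10.07 in LiPS-47, and 9.86, 9.86 and 9.90 in LiPS-50. LiPS-50 did not overlap with the others. The fold was 1.14, 1.18 and 1.16 (SE 0.0598, limma adjusted p = 0.0562, 0.019 and 0.0329), so the pair with LiPS-45 missed the threshold. The call against LiPS-57 was lost without LiPS-50 repeat 1 or 2 or LiPS-57 repeat 1 (adjusted p = 0.0575, 0.0552 and 0.082). The call against LiPS-47 was lost on leaving out any 1 of the 6 arrays of those lines, with adjusted p from 0.0617 (without LiPS-50 repeat 3) to 0.0883 (without LiPS-50 repeat 1).

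The other 4 fatty acid genes passed in no pair. Fasn, fatty acid synthase, read 10.46, 10.25 and 10.29 in LiPS-50 against a range of 10.40 to 10.54 elsewhere, and its adjusted p was at least 0.131. Acly, which supplies cytosolic acetyl-CoA, read 10.44, 10.24 and 10.31 in LiPS-50 within or below a range of 10.33 to 10.45. The desaturases of polyunsaturated fatty acids, Fads1 and Fads2, had means of 8.88 ± 0.099 and 9.39 ± 0.028 (SD, n = 3) in LiPS-50, inside the other lines' ranges of 8.71 to 8.92 and 9.28 to 9.49.

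**Figure D4:**
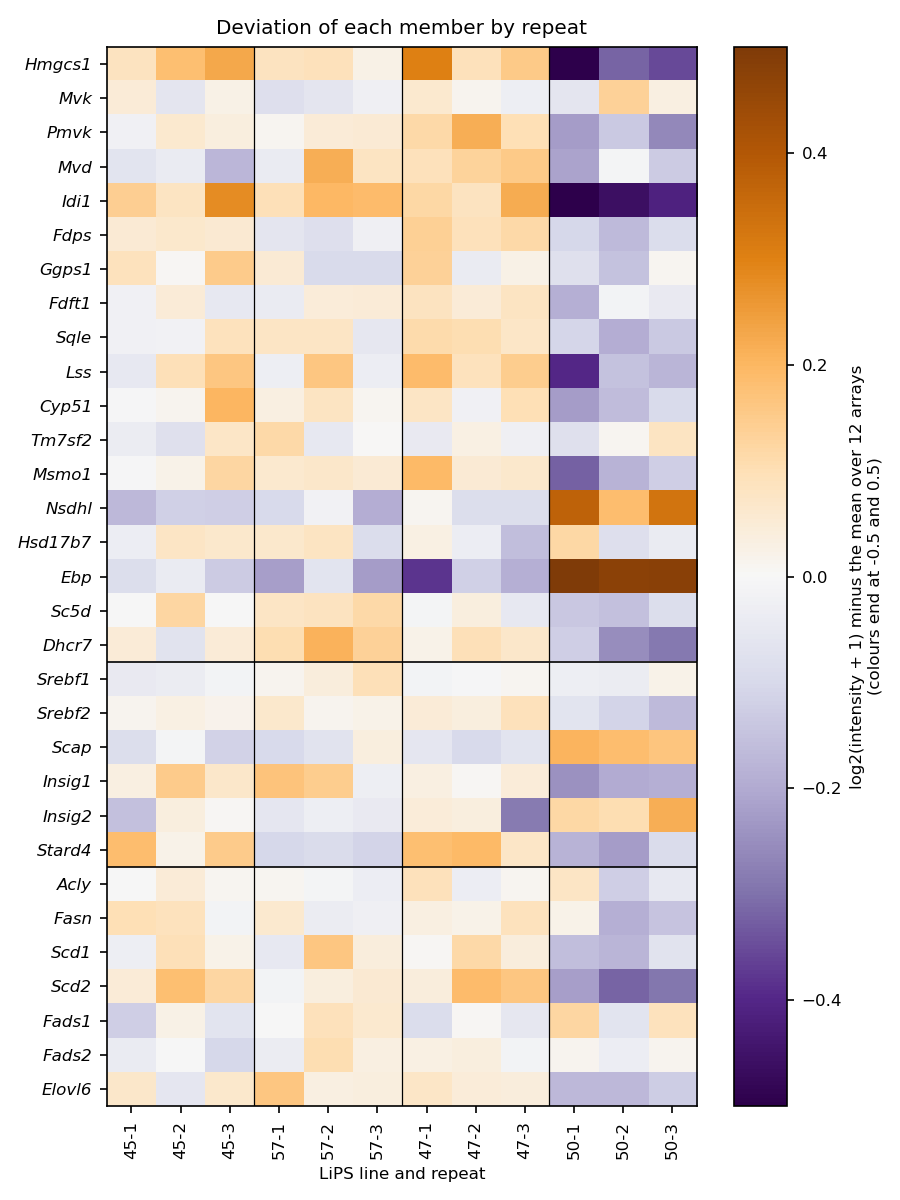
Deviation of each member from its own mean over the 12 arrays, in log2(intensity + 1), with a column for each repeat; colours end at -0.5 and 0.5. The 3 LiPS-50 columns are low for most sterol enzymes and high for Nsdhl, Ebp, Scap and Insig2.

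Position of the LiPS-50 repeats was counted next. All 3 lay below the other 9 arrays for 10 of 18 sterol enzymes, 2 of 6 regulators and 3 of 7 fatty acid genes, against 10.7% of all genes and 22.7% of bright genes. They lay above for 2, 2 and 0, against 10.3% and 16.3%. The median deviation of the 16 autosomal sterol enzymes from their own means was -0.16, -0.15 and -0.11 in the LiPS-50 repeats and between -0.01 and 0.10 in the other arrays. For the other lines, the 3 LiPS-47 repeats lay above all other arrays for Pmvk and Fdps (0.933% of all genes and 1.17% of bright genes), and the 3 LiPS-57 repeats for Dhcr7 (1.05% of all genes and 2.16% of bright genes).

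The counts against LiPS-45 depended on single arrays. The 10 sterol enzymes called became 6 without LiPS-45 repeat 2, 4 without LiPS-45 repeat 3 and 5 without LiPS-50 repeat 1, of which 2 were higher in LiPS-50 each time. Against LiPS-57 and LiPS-47 the sterol counts stayed between 6 and 9 and between 10 and 11. In simulated data, 167 of 28939 probe sets were called. There a change of 25% between LiPS-47 and LiPS-50 was recovered for 32% of changed probe sets and a change of 50% for 86%. The real pair had 3644 genes called, so the adjusted threshold was less strict than in the simulation. Small changes could be missed in that pair, at a rate these shares do not give. The 4 regulators called against LiPS-47 became 2 without LiPS-47 repeat 1, 2 or 3 or LiPS-50 repeat 1, 2 or 3. The 2 called against LiPS-57 became 1 without LiPS-57 repeat 1 or 2 or LiPS-50 repeat 1. The 2 fatty acid genes became 1 against LiPS-47 without any 1 array of that pair, and 1 against LiPS-57 without LiPS-57 repeat 1 or LiPS-50 repeat 1 or 2. The 1 called against LiPS-45 became 2 without LiPS-45 repeat 2 or LiPS-50 repeat 1.

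The pairs among LiPS-45, LiPS-57 and LiPS-47 were read in the same way. In limma's test 0 of 31 were called in LiPS-45 against LiPS-57, LiPS-45 against LiPS-47 and LiPS-57 against LiPS-47, where 0.251%, 0.0502% and 0.15% of all genes and 0.214%, 0.04% and 0.174% of bright genes were. At an unadjusted p under 0.05 there were 3, 1 and 2 members, and the lowest adjusted p was 0.342, 0.412 and 0.329. Adjustment within each pair made the bar stricter here than in the pairs with LiPS-50. Fdps differed by 0.17 log2 units between LiPS-57 and LiPS-47 (limma unadjusted p = 0.00596, adjusted p = 0.476) and was not called. Its difference of 0.18 between LiPS-45 and LiPS-50 (limma unadjusted p = 0.00506, adjusted p = 0.0353) was called. The largest differences were 0.22 log2 units for Stard4 between LiPS-45 and LiPS-57, 0.22 for Mvd between LiPS-45 and LiPS-47, and 0.25 for Stard4 between LiPS-57 and LiPS-47. Across the 31 members no 95% interval in these pairs reached beyond 0.39 log2 units from 0. That bound exceeds some differences called against LiPS-45 in LiPS-50, such as 0.25 for Msmo1. Differences of that size are therefore not excluded by these intervals.

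A test that chose no pair, the moderated F-test of any difference among the 4 lines, called 13 of 31 members: 9 sterol enzymes, 3 regulators and 1 fatty acid gene. Over all genes it called 16.8%, and over bright genes 28.9%. Idi1 (adjusted p = 1.12e-04), Ebp (1.35e-04), Hmgcs1 (7.72e-04) and Scd2 (0.00202) had the lowest adjusted p among members. Without LiPS-50 repeat 1 the F-test called 8 members.

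The question the study posed was whether lines with and without tetraploid complementation competence differ. With the line as a random block, 0 of 31 members were called, as were 0% of all genes; 4 members had an unadjusted p under 0.05 and the lowest adjusted p among members was 0.648. The competent lines were higher by a median of 0.05 log2 units over the sterol enzymes and 0.06 over the fatty acid genes. LiPS-47, which lacks competence, had the highest mean of the 4 lines for Hmgcs1, Lss and Msmo1, so the lines without competence held both the highest and the lowest mean for these genes. A contrast of line means with no random block called Hmgcs1, Idi1 and Insig1 as higher and Nsdhl and Ebp as lower in the competent lines. Each of these 5 was called in LiPS-50 against each other line and in no pair without LiPS-50.

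The arrays of LiPS-50 also differed in fibroblast and feeder markers. The summed intensity of 25 measured fibroblast and feeder markers was 38614 to 43113 in LiPS-50, against 28034 to 33256 in LiPS-45, 28543 to 30677 in LiPS-57 and 24266 to 29877 in LiPS-47. Of the 25, 23 were higher in LiPS-50 in each pair. The median over all 25 was higher in LiPS-50 by 0.69, 0.69 and 0.85 log2 units. The sum of 12 pluripotency markers was 22165 to 22694 in LiPS-50 and 22177 to 23327 in the other lines. That sum covers calls in both directions: 4, 4 and 2 of the 12 were lower in LiPS-50 than in LiPS-45, LiPS-57 and LiPS-47, and 2, 2 and 3 were higher. Of 10 endoderm markers 3, 2 and 2 were higher in LiPS-50 than in LiPS-45, LiPS-57 and LiPS-47 and 2, 1 and 1 lower. Pdgfra is in both the fibroblast and the endoderm list. Of 9 trophectoderm markers 3, 3 and 3 were higher and 2, 1 and 3 lower. In the same pairs 9.59%, 9.32% and 9.84% of all genes and 13.6%, 13.6% and 14.8% of bright genes were higher in LiPS-50. Lower were 9.1%, 8.59% and 8.44% of all genes and 18.2%, 17.4% and 16.1% of bright genes. Of 6 adipocyte markers 0 were called, with summed intensities of 134 to 165 over all arrays. In bulk RNA, fewer cells of a type and less RNA per cell cannot be told apart. The part of the fibroblast and feeder signal in the sterol values was not tested.

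**Figure D5:**
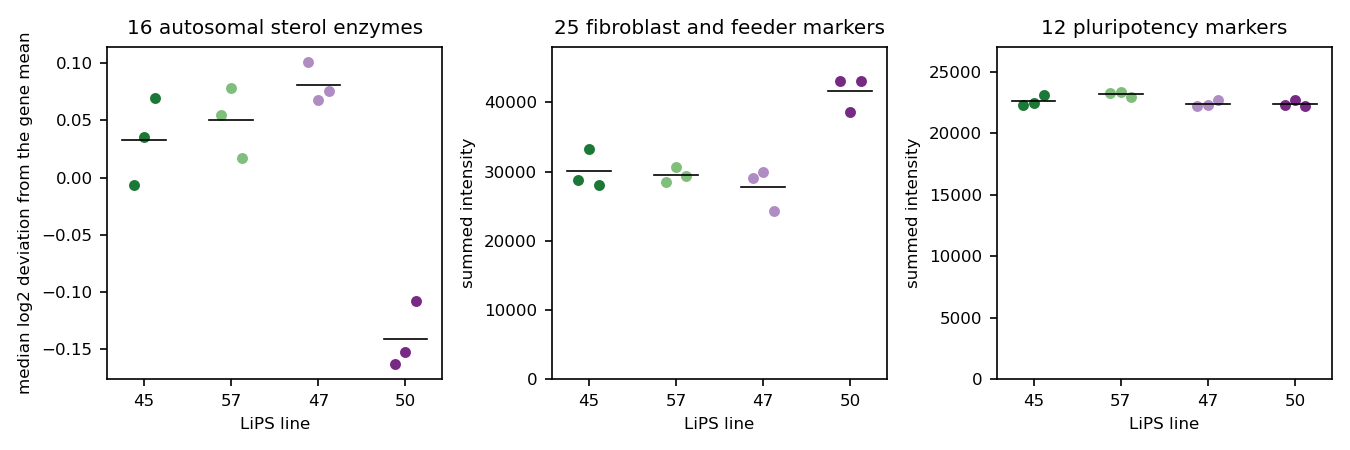
Values in each repeat of the 4 lines, with a bar at the mean of each line: the median log2 deviation of 16 autosomal sterol enzymes from their own means, the summed intensity of 25 fibroblast and feeder markers, and the summed intensity of 12 pluripotency markers. The LiPS-50 repeats are lowest in the sterol panel (-0.16 to -0.11) and highest in the fibroblast panel. In the pluripotency panel, where markers moved both ways, the LiPS-50 sums run from 22165 to 22694 and those of the other lines from 22177 to 23327.

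Genes that handle SREBPs or use the products of the pathway were read in the same fit, described for LiPS-50 against LiPS-45, LiPS-57 and LiPS-47 in turn. In those pairs 9.59%, 9.32% and 9.84% of all genes were higher in LiPS-50 and 9.1%, 8.59% and 8.44% lower; among bright genes 13.6%, 13.6% and 14.8% were higher and 18.2%, 17.4% and 16.1% lower. Of 10 measured genes of SREBP processing and sterol sensing, 2, 2 and 2 were higher in LiPS-50 and 0 lower, which is near the background. They were Sec23a, of the vesicle coat that carries SREBPs with Scap (1.35-fold against LiPS-47, limma adjusted p = 9.97e-04), and Nsf, a membrane fusion ATPase (1.20-fold, adjusted p = 0.0114). Of 9 genes of isoprenoid branches, 2, 3 and 2 were lower and 0 higher, among them Pdss2 of ubiquinone synthesis (1.35-fold against LiPS-47, adjusted p = 0.00847) and Rabggta, a prenyltransferase subunit (1.21-fold, adjusted p = 0.00463).

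Of 13 genes of sterol transport, esterification and the LXR response, 5, 5 and 3 were higher in LiPS-50 and 0 lower. The shares higher there were 9.59%, 9.32% and 9.84% of all genes and 13.6%, 13.6% and 14.8% of bright genes. Over all 13 the median was higher in LiPS-50 by 0.23, 0.21 and 0.14 log2 units. Against LiPS-47 the 3 were Lrp1, a lipoprotein receptor (1.74-fold, limma adjusted p = 0.00127), Npc2, which moves cholesterol out of lysosomes (1.32-fold, adjusted p = 0.00422), and Osbpl2, an oxysterol-binding protein (1.24-fold, adjusted p = 0.0261). The cholesterol exporter Abca1, an LXR target, was 1.34-fold higher against LiPS-47 and was not called (adjusted p = 0.109). The direction of this list was opposite to that of the median sterol enzyme, and the difference between the lists was not tested. Most fibroblast and feeder markers were also higher in LiPS-50. Their part in the values of this and the other related lists was not tested.

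Of 18 other genes of fatty acid and acetyl-CoA supply, 5, 3 and 4 were higher in LiPS-50 and 1, 2 and 2 lower. The shares higher in LiPS-50 were 9.59%, 9.32% and 9.84% of all genes and 13.6%, 13.6% and 14.8% of bright genes. Against LiPS-47, Fads3, a desaturase relative (1.51-fold, limma adjusted p = 9.43e-04), Mid1ip1, a regulator of lipid synthesis (1.28-fold, adjusted p = 0.0036), and Me1, malic enzyme (1.24-fold, adjusted p = 0.0149), were higher, and Elovl7, an elongase, was 1.41-fold lower (adjusted p = 0.0102). Mid1ip1 is on the X chromosome. Over 17 genes of mitochondrial fatty acid oxidation, the median was higher in LiPS-50 by 0.16, 0.14 and 0.14 log2 units. Of the 17, 8, 5 and 5 were called higher in LiPS-50, beside the same shares, and 0 lower. They included Cpt1a, which admits fatty acids to mitochondria (1.51-fold against LiPS-47, adjusted p = 7.57e-04), the carnitine carrier Slc25a20 (1.39-fold, adjusted p = 9.73e-04), Etfb, an electron transfer subunit (1.26-fold, adjusted p = 0.00163), and Ech1, an enoyl-CoA isomerase (1.32-fold, adjusted p = 0.0038). In each of the 3 pairs without LiPS-50, 0 genes of these 5 lists were called.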

How the data were processed

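RNA of 4 mouse iPS lines, 3 biological repeats each, was extracted with Trizol, amplified and hybridised to 12 Affymetrix whole-transcript arrays, per the labels' protocols. What the authors deposited is a linear intensity for each of 35556 probe sets on each array. GCOS 1.4 is named in the submitters' processing notes. The sources used here do not give the background correction, probe summary or scaling. Values were used as deposited, as log2(intensity + 1), since array quartiles differed by at most 0.0954 log2 units. A block of 6617 probe sets numbered below the lowest annotated one was left out as controls, a choice that rests on the numbering. Of the 28939 left, 21789 list 1 gene; 19856 of 19938 genes matched a RefSeq symbol (GRCm38.p6), which also gave chromosomes. The annotation names no genome build, so probe sets are given no coordinates.

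Line means over 12 arrays were fitted with limma 3.58.1 in R 4.3.3 (lmFit, eBayes, 8 residual and 4.06 prior degrees of freedom), giving 6 pairs and an F-test. Competence was fitted with line as a random block (consensus correlation 0.183). The script was tested on simulated data: 8 of 167 calls were false. The number of arrays limits the precision. All 32 members are named; members of 5 related lists are named if called against LiPS-47, up to 4 by p, and Abca1 was named after its values were seen. The members, lists and the bright-gene bar were chosen with earlier results of these data known. Alternatives were the array scale, a filter on dim probe sets, the pseudocount, the control block, the lines fitted, the probe set, the prior, a replicate block and each array left out.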

Additional observations from a re-analysis of the deposited data

How the results depend on the processing

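No difference changed direction under any of the 22 alternatives tried for each called difference: of 43 calls between LiPS-50 and another line, 26 were kept under all 22, and 17 were lost under at least 1. Kept throughout were all 3 calls of Hmgcs1, Idi1, Scd2, Nsdhl and Ebp. Fitting the compared lines alone, with fewer residual degrees of freedom, lowered the sterol count against LiPS-45 from 10 to 4, regulators against LiPS-57 from 2 to 1, and fatty acid genes from 2 to 1 against LiPS-57 and LiPS-47. The calls lost against LiPS-45 were Pmvk, Fdps, Lss, Cyp51, Msmo1 and Dhcr7. Those against LiPS-57 were Lss, Sc5d, Scap and Elovl6, and those against LiPS-47 were Fdps, Srebf2 and Elovl6. Fatty acid genes against LiPS-45 rose from 1 to 2 with median centring, with dim probe sets below the 40th percentile removed or with a pseudocount of 16, and to 3 with a trended, robust prior, which gave 4 in place of 2 against LiPS-47. The cause of these moves was not tested. Leaving out each array gave 4 to 10 sterol enzymes, 3 to 3 regulators and 1 to 2 fatty acid genes against LiPS-45, 6 to 9, 1 to 2 and 1 to 2 against LiPS-57, and 10 to 11, 2 to 3 and 1 to 2 against LiPS-47. It gave 8 to 14 members in the F-test and 0 for competence and for the pairs without LiPS-50. Competence gave 5 calls in place of 0 with no random block. The deviations of same-numbered repeats of different lines correlated at -0.17 to 0.12, with 4 of 18 pairs over 0.1. Those of differently numbered repeats correlated at -0.18 to 0.20, with 6 of 36 over 0.1, so the numbers showed no pairing. With a replicate block the sterol counts were 10, 9 and 11, and the call of Srebf2 against LiPS-47 was lost (adjusted p = 0.0651). The spread within lines limits calls of small changes, to an extent not measured here. Signal over background could not be assessed, as no background values were used here.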
